A study of Mus musculus with 8 samples.

Results

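Adenines that the base-modification caller identified as N6-methyladenine with an identification score of 20 or more were taken from the 4 deposited lists of called adenines, leaving out 4 areas of dense calls. These areas were the contig chrUn_JH584304, chromosome 9 from 3 to 3.1 Mb, chromosome 14 from 19.4 to 19.5 Mb and chromosome 2 from 98.6 to 98.7 Mb. Of 17418 calls in all, 15823 lay outside the areas, and 1788 of those (11.3%) had a score of 20 or more. They are called identified sites here, and the remaining 14035 calls outside the areas are called other sites. The sites were thus chosen by the identification score, which the caller gives for the fit of a base's kinetics to this modification, and the values of that score and of the other kinetic measures are given as a description with no test.

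The DNA came from mouse TT2 embryonic stem (ES) cells of a C57BL6 x CBA background, which were cultured feeder-free and taken at passage 5 to 10. The cells were wild type (WT) or carried a knockout of Alkbh1 (KO), and native chromatin of both was immunoprecipitated with a customized H2A.X antibody and read by single-molecule real-time (SMRT) sequencing. Each genotype had libraries labelled L and libraries labelled S, with 2 replicates of each, 8 samples in all. Both replicates of a group share 1 list, named here WT L or KO L and WT S or KO S, so no list can be set against its replicate. Intervals below are 95% intervals of counts that treat calls as independent; they cover counting error only, are too narrow where calls cluster, and hold no spread between cultures. How many clones the KO stands for is not given in the sources used here, and nothing in the lists of modified bases checks the knockout itself.

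N6-methyladenine is adenine with a methyl group on its exocyclic amine. It is a well-known mark of bacterial DNA, where methyltransferases place it in fixed short motifs, and its amount in mammalian DNA has been debated. ALKBH1 is a dioxygenase that has been described as removing this methyl group, and H2A.X is a histone variant known for its phosphorylation around DNA breaks. SMRT sequencing records the pauses of a polymerase as it copies each base. The inter-pulse duration (IPD) ratio states how long it waited at a base compared with the wait predicted for that base without a modification.

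The sequences with the strongest identification, leaving out those most like the 4 areas, show which bases surround such an adenine. The 3 with the highest identification score in each list are printed among the sites that shared fewer than 3 words of 12 bases with the calls of the 4 areas, a set chosen after their values were seen. Repeats of other kinds were not removed, and the last line is an adenine run. Coordinates are of build mm10, the 41 bases run 5′ to 3′ on the called strand as the lists give them, and the capital marks the called adenine.
WT L, chrX:35701306-35701346, plus strand: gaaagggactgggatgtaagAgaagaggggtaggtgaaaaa
WT L, chr9:118435885-118435925, plus strand: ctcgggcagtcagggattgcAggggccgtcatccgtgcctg
WT L, chr6:23780700-23780740, plus strand: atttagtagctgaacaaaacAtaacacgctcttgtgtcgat
KO L, chrX:58895206-58895246, plus strand: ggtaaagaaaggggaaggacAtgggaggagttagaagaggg
KO L, chr11:54415243-54415283, minus strand: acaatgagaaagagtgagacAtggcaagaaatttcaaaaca
KO L, chr7:37801595-37801635, plus strand: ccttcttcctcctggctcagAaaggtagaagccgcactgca
WT S, chr14:60684119-60684159, plus strand: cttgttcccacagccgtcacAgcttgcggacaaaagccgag
WT S, chr17:88545574-88545614, minus strand: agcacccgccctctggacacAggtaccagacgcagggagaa
WT S, chr4:7007526-7007566, plus strand: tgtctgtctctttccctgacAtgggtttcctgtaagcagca
KO S, chr10:53858060-53858100, minus strand: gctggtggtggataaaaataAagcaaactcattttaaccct
KO S, chr1:16031373-16031413, plus strand: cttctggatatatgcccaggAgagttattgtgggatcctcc
KO S, chr1:86007851-86007891, plus strand: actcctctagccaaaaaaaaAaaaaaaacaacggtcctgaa

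The site on chromosome 14 had an identification score of 122 at coverage 33, with an IPD ratio of 7.22 and an estimated modified fraction of 100%. The site on chromosome 17, in Ppp1r21, had a score of 111 at coverage 57, an IPD ratio of 3.06 and a fraction of 90%. In the L lists the highest of these sites reached 58 in WT, with an IPD ratio of 11.1, and 74 in KO, with an IPD ratio of 5.7, both on chromosome X and outside genes. The site on chromosome 11 lies in Meikin, which encodes a meiotic kinetochore protein, and that on chromosome 6 in Cadps2, a regulator of dense-core vesicle release. None of the 12 bases was called in a second list.

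A second set shows the 5-base sequence with the largest share of identified sites among those held by 20 or more of them. ACAGG, read from 2 bases before to 2 bases after the called adenine, was chosen after its values were seen. The site with the highest identification score in each list is printed with these 5 bases in capitals.
WT L, chr3:22228784-22228824, minus strand: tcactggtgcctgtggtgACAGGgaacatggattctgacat
KO L, chr5:56545262-56545302, plus strand: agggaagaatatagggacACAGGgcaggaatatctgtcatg
WT S, chr17:88545574-88545614, minus strand: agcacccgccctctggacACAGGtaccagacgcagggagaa
KO S, chr12:111084729-111084769, minus strand: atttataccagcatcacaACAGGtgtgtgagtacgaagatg

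Of 58 calls in ACAGG, 23 were identified (39.7%), against 20.9% of all CAG calls and 11.3% of all calls outside the areas. As ACAGG was picked for the largest share, its value is likely to be high by selection. The identification scores of the 4 printed were 37, 35, 111 and 27, in the order of the lines, at coverages of 11, 21, 57 and 12. Of these, the KO S site lies in Rcor1, which encodes a subunit of a histone demethylase and deacetylase complex.

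The share of calls that were identified was 8.88% in WT L (311 of 3501, interval 7.96 to 9.87%) and 8.7% in KO L (234 of 2691, 7.66 to 9.82%). It was 13.5% in WT S (890 of 6606, 12.7 to 14.3%) and 11.7% in KO S (353 of 3025, 10.5 to 12.9%). The KO minus WT difference was -0.19 points (-1.60 to 1.25) in L and -1.80 points (-3.19 to -0.37) in S. With coverage held equal, the difference in S was 0.27 points (-1.13 to 1.66), which includes 0, and at coverage 25 or more it was 3.14 points (-3.57 to 10.5). In the 4 areas left out, 39.7 to 49.8% of calls had a score of 20 or more in the 4 lists. The median identification score of identified sites was 25 for WT L, 24 for KO L, 25 for WT S and 25 for KO S, against 6 to 7 for other sites. The highest values were 190, 206, 327 and 361 in the same order. Most of the sites were close to the threshold, as 526 of 1788 had a score of 30 or more and 43 had 60 or more. The 447 calls just below it, at 18 to 19, and the 387 just above, at 20 to 21, were alike in median coverage (13 and 14), IPD ratio (2.87 and 2.87) and fraction (82.7% and 84.1%). Adenines followed by guanine made up 22.6% just below and 24% just above, and those preceded by cytosine 36% and 33.1%.

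Coverage, the reads or passes over a base, was higher at identified sites. The median was 12 against 10 at other sites for WT L, 14 against 9 for KO L, 18 against 13 for WT S and 15 against 10 for KO S. In every list the exact intervals of the 2 medians did not overlap. Over the 4 lists, the identified share was 5.03% of calls at coverage 6 to 7, 11% at 12 to 14, 19% at 20 to 24 and 23.5% at 25 to 39. It was 36.4% at 40 to 79 (43 of 118) and 69.5% at 80 or more (41 of 59, interval 56.1 to 80.8%). Of these 41, 26 lay within 288 bases of the gene Gm33838, on 9 distinct bases. A further 4 were 1 base of Chl1, identified in all 4 lists. The range of 80 or more thus counts the same bases in several lists, and its interval is too narrow. At coverage 25 to 39 the lists stood at 20.7% for WT L (23 of 111), 20.7% for KO L (18 of 87), 23.4% for WT S (167 of 713) and 26.9% for KO S (45 of 167). The lists differ in coverage, which moves with the identified share, and its part in the higher share of the S lists over the L lists was not tested.

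**Figure D1:**
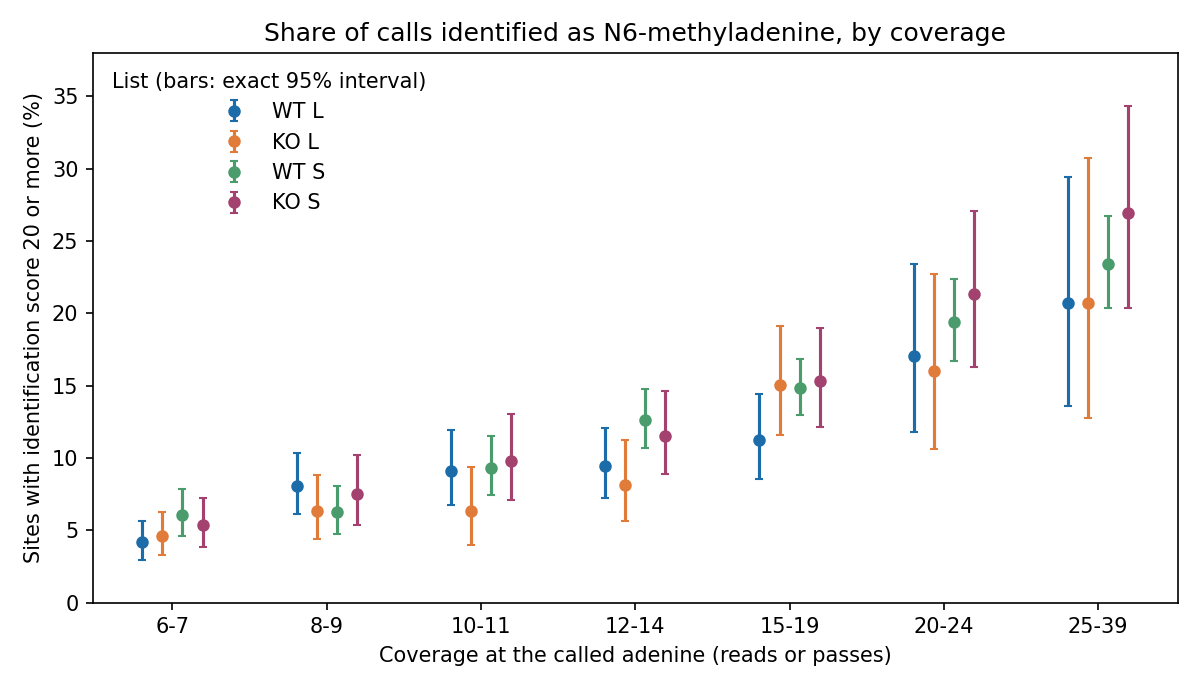
Share of calls with an identification score of 20 or more (%, vertical axis) in 7 ranges of coverage (horizontal axis) for the 4 lists, with exact 95% intervals; calls at coverage 40 or more are left out of the plot. The share lies between 4.16 and 6.07% at coverage 6 to 7 and between 20.7 and 26.9% at 25 to 39.

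The kinetic values, which share their reads with the identification score, were also higher. The median modification score of identified sites was 28 for WT L, 29 for KO L, 29 for WT S and 27 for KO S, against 23 to 24 for other sites. The median IPD ratio was 3.09, 3.18, 2.86 and 2.88 in the same order, against 2.62, 2.62, 2.61 and 2.73. The modified fraction, given by the caller at coverage 11 or more only, was available for 1342 identified sites. Its median was 85.5% for WT L, 84.5% for KO L, 81.6% for WT S and 84.8% for KO S, against 72.6%, 68.95%, 71% and 77.5%. The caller put the fraction at 100% for 28.3 to 32.1% of the identified sites with a fraction per list, against 16.5 to 21.1% of the other sites with a fraction. These fractions are loose, since the lower bound reached 50% at 36.6 to 43.1% of identified sites with a fraction. They also moved with coverage, as the median over the 4 lists fell from 100% at coverage 10 to 11 (where only calls at 11 have a fraction) to 61.1% at 25 to 39 (90.8% and 46.2% for other sites), so sites of different coverage cannot be compared in fraction. Among calls with a modification score of 30 or more, the median fraction in KO S was lower at identified sites, by a difference of -1.1 points (-8.20 to 3.23).

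The bases next to the adenine differed between identified and other sites. Identified sites were more often preceded by cytosine and more often followed by guanine, and both together, as CAG, made up 14.1% of them against 6.80% of other sites. The difference in CAG was 7.31 percentage points with the list as stratum (interval 5.64 to 8.98). CAG was 12.9% of identified against 6.05% of other sites for WT L (40 and 193 sites), 15% against 6.39% for KO L (35 and 157), 13.4% against 6.49% for WT S (119 and 371) and 16.7% against 8.76% for KO S (59 and 234). All 4 lists went the same way. Read from the context, 20.9% of CAG calls were identified, against 11.3% of all calls.

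Guanine after the adenine, the AG context, stood at 28.9% of identified against 20.3% of other sites for WT L, 33.8% against 21.7% for KO L, 28.7% against 19.6% for WT S and 35.4% against 26.6% for KO S. Over the lists the difference was 9.30 points (7.05 to 11.5). Cytosine before the adenine stood at 40.8% against 28.7%, 36.8% against 28.6%, 39.4% against 30.3% and 41.1% against 32% in the same order, a difference of 9.52 points (7.12 to 11.9). That difference was 4.49 points (0.73 to 8.25) at a modification score of 30 or more, and 2.88 points (0.91 to 4.86) with the 4 areas kept in. Guanine before the adenine was rarer among identified sites, with a difference of -4.01 points (-5.95 to -2.07). AGG made up 10.7% against 7.45%, a difference of 3.30 points, while the longer GAGG differed by 0.65 points, with an interval of -0.19 to 1.5 that includes 0.

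Of the 16 contexts made by the base before and the base after, 2 differed for WT L (12.5% of the 16), 3 for KO L (18.8%), 2 for WT S (12.5%) and 1 for KO S (6.25%), with intervals set for 64 comparisons at once. CAG was higher among identified sites in all 4 lists. CAT was higher in 3, at 16.7% against 10.3% for WT L, 16.7% against 8.02% for KO L and 14.6% against 10.4% for WT S. In KO S it stood at 11% against 9.73%, with an interval that includes 0. The third difference in KO L was CAA, which was lower among identified sites there. GAG was identified in 14% of its calls and AAA in 12.9%, and at the low end AAC in 5.52% and GAC in 6.15%, without a difference that passed in any list.

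**Figure D2:**
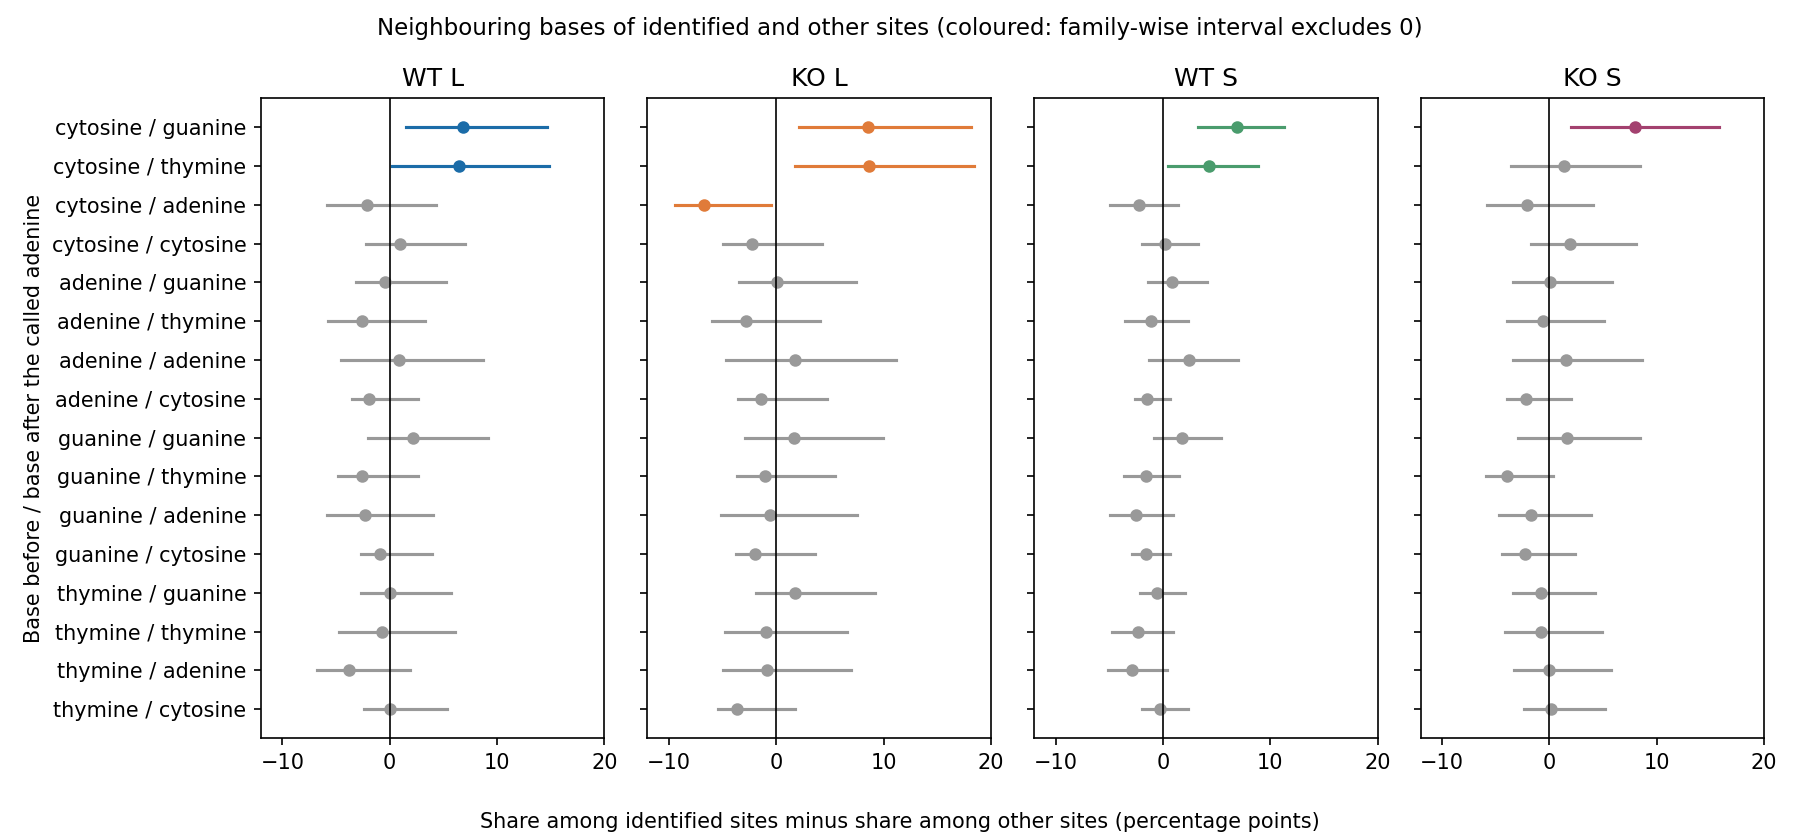
Share of each of 16 neighbour contexts among identified sites minus its share among other sites (percentage points, horizontal axis), by list; lines are intervals set for 64 comparisons, coloured where they exclude 0. Cytosine before with guanine after is coloured to the right of 0 in all 4 lists, from 6.81 to 8.57 points, and cytosine before with thymine after in 3.

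The preference reached 1 base further. Adenine stood 2 bases before the called base in 30.4% of identified CAG sites against 20.1% of other CAG sites, a difference of 10.5 points (4.29 to 16.8). In CAT it was 38.8% against 23.4%, 15.3 points (9.01 to 21.7), and guanine at the same place was rarer by 12.4 points (-16.8 to -8.05). ACAG accordingly made up 4.31% of identified and 1.37% of other sites. Over the 10 bases on each side, 9 of 80 pairs of a base and a position differed, with intervals set for 80 comparisons at once. Of the 9, 7 lay within 2 bases of the adenine. The other 2 stood 6 bases before it, where guanine was more frequent by 4.61 points and thymine less frequent by 3.60, in 3 of 4 lists.

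The surroundings of both kinds of site held these triplets at similar shares. Among the uncalled adenines of the same 41-base contexts, 6.95% around identified sites were in CAG against 6.63% around other sites, and 5.06% against 5.21% were in CAT. Adenines followed by guanine made up 23.5% and 23.9%, and those preceded by cytosine 23.1% and 23.4%. These are descriptions, since adenines of a context are not independent. Against that level of their own surroundings, identified sites had AG at 30.7% while other sites had it at 21.5%. Cytosine before stood above that level in both, at 39.7% of identified and 30% of other sites. So did CAT, at 14.5% and 9.80%. CAG stood at 14.1% of identified sites and at 6.80% of other sites, the latter close to their surroundings. Mean GC content of the contexts was 41.6% ± 12 (SD over 1788 contexts) and 40.8% ± 11.4 (SD over 14035 contexts).

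The context shares moved with the score well below the threshold. Among calls with coverage under 25, CAG made up 5.84% at identification scores of 0 to 4, 7.98% at 10 to 14, 10.7% at 15 to 19, 12.9% at 20 to 24 and 19.49% at 30 to 39. Cytosine before the adenine went from 28% at 0 to 4 to 48.7% at 30 to 39, and guanine after it from 20.2% to 36.8%. At 40 or more the 89 calls had 18%, 42.7% and 38.2% for CAG, cytosine before and guanine after. The threshold of 20 thus cuts a gradual relation. Whether the caller's identification score itself varies with sequence was not tested, because the lists hold no unmodified control DNA.

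**Figure D3:**
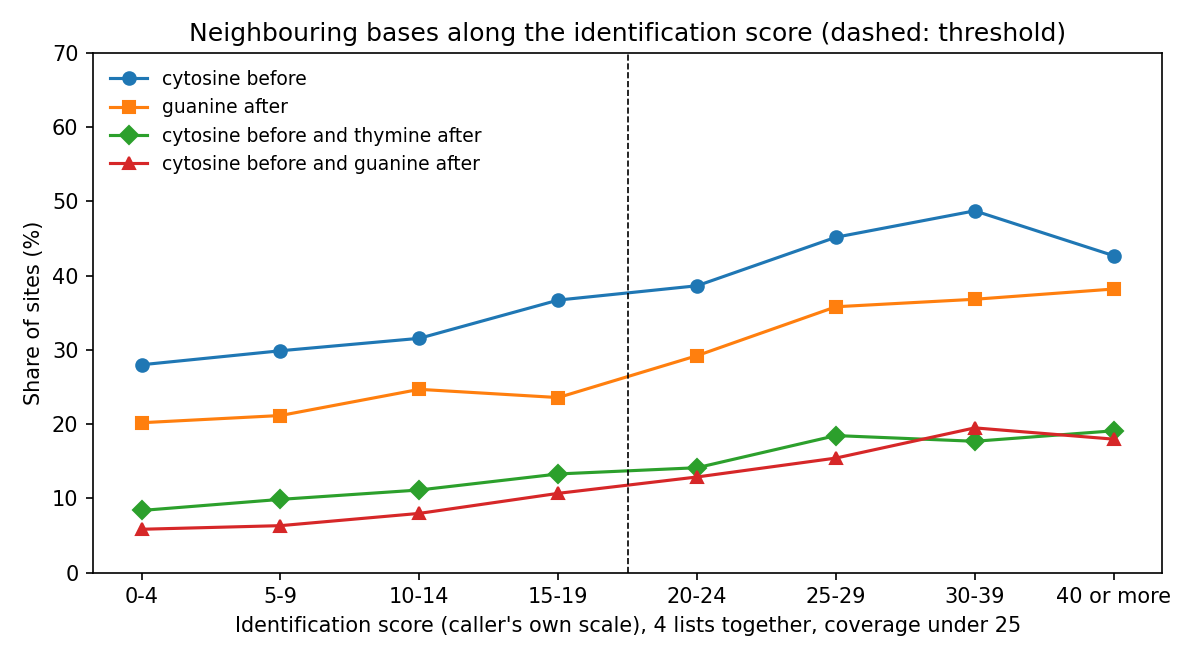
Share of calls with the named neighbouring bases (%, vertical axis) in 8 ranges of the identification score (horizontal axis, the caller's own scale), 4 lists together, for calls at coverage under 25; the dashed line marks the threshold. Each of the 4 shares is higher at 20 to 24 than at 0 to 4, and cytosine before with guanine after goes from 5.84 to 12.9%.

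The size of the context difference moved with coverage. At coverage 6 to 7, 49.1% of identified sites were preceded by cytosine against 31.4% of other sites, and at 25 to 39 it was 28.5% against 24.4%. Guanine after the adenine stood at 30.5% against 23.5% and at 23.7% against 16.4% in these ranges. With coverage held equal by strata, the AG difference was 11 points (8.71 to 13.3) and the CAG difference 8.07 points (6.36 to 9.77). At 25 or more, the AG difference was 4.83 points (-0.15 to 9.81) and that for cytosine before 3.87 points (-1.64 to 9.38), both with intervals that include 0. The CAG difference there was 5.47 points (1.98 to 8.97) over the lists, but 0.65 points (-6.88 to 11.3) in KO S. In the 59 calls at coverage 80 or more, 9.76% of the 41 identified sites were followed by guanine, against 27.8% of other sites. Of these 41, 26 lay on 9 distinct bases of Gm33838, so the shares stand for few places and are a description.

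Knockout and wild type were set side by side for these measures. The AG share of identified sites was higher in KO S than in WT S by 6.76 points (1.06 to 12.6), and other sites of the same lists differed by 7.0 points (5.05 to 8.98). In L the KO minus WT difference was 4.82 points (-2.98 to 12.7) for identified sites and 1.42 points (-0.72 to 3.58) for other sites. The S difference no longer excluded 0 with coverage held equal, at 5.49 points (-0.40 to 11.4). For 9 measures (the neighbours, spacing, gene bodies, chromosome X and CpG), the KO minus WT difference of identified sites was set against that of other sites and L against S. None of these 27 differences of differences had an interval that excludes 0. For AG in S it was -0.24 points, with an interval from -6.27 to 5.95.

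Identified sites stood closer to other calls. Another call of the same list lay within 10 bases of 11.9% of them for WT L (37 of 311), 14.5% for KO L, 14.7% for WT S and 13% for KO S (34, 131 and 46 sites). For other sites it was 5.14%, 4.44%, 8.14% and 4.72%. The difference over the lists was 7.43 points (5.78 to 9.09), and with coverage held equal it was 3.92 points (2.33 to 5.51). The nearest call was a median of 48762 bases away in WT S and 107257 to 122394 in the 3 smaller lists, against 78315 and 180886 to 221260 for other sites. Where a call lay within 10 bases, the nearest one was on the same strand for 69.6 to 84.7% of identified sites, and for 73 to 76.8% of other sites. That neighbour was itself identified in 43.2% of cases for WT L, 55.9% for KO L, 30.5% for WT S and 37% for KO S. Next to other sites 12.8 to 22.2% of neighbours were identified. Neighbours share reads and coverage, so this is a description.

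The commonest distance was 2 bases on the same strand. Such a second call stood 2 bases 3′ of 28 and 2 bases 5′ of 22.9 in 1000 identified sites, against 6.13 and 6.77 in 1000 other sites. Of the 50 identified sites with a second call 2 bases 3′, 34 were in AAA, 34 had an adenine between the 2 calls, and in 24 both calls were identified. Identified sites with a neighbour within 10 bases (248) were 29.8% AAA, 5.24% CAG and 17.7% preceded by cytosine, at a median coverage of 23. The 1540 without one were 10.4% AAA, 15.6% CAG and 43.2% preceded by cytosine, at a median coverage of 14. Other sites split in the same direction in each of these. Those with a neighbour were 28.8% AAA, 3.01% CAG and 15% preceded by cytosine, at a median coverage of 16. Those without were 10.1% AAA, 7.05% CAG and 31% preceded by cytosine, at a median coverage of 11. The opposite adenine of AT was rarely called too, at 6 of 512 identified adenines followed by thymine (1.17%), against 10 of 4070 other sites (0.246%). Symmetric marks in other sequences were not tested. On the opposite strand, second calls of identified sites were most frequent 4 bases 3′, at 7.83 in 1000 against 1.14 for other sites. This count includes a pair of bases on chromosome 9, described below, that was called in all 4 lists.

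**Figure D4:**
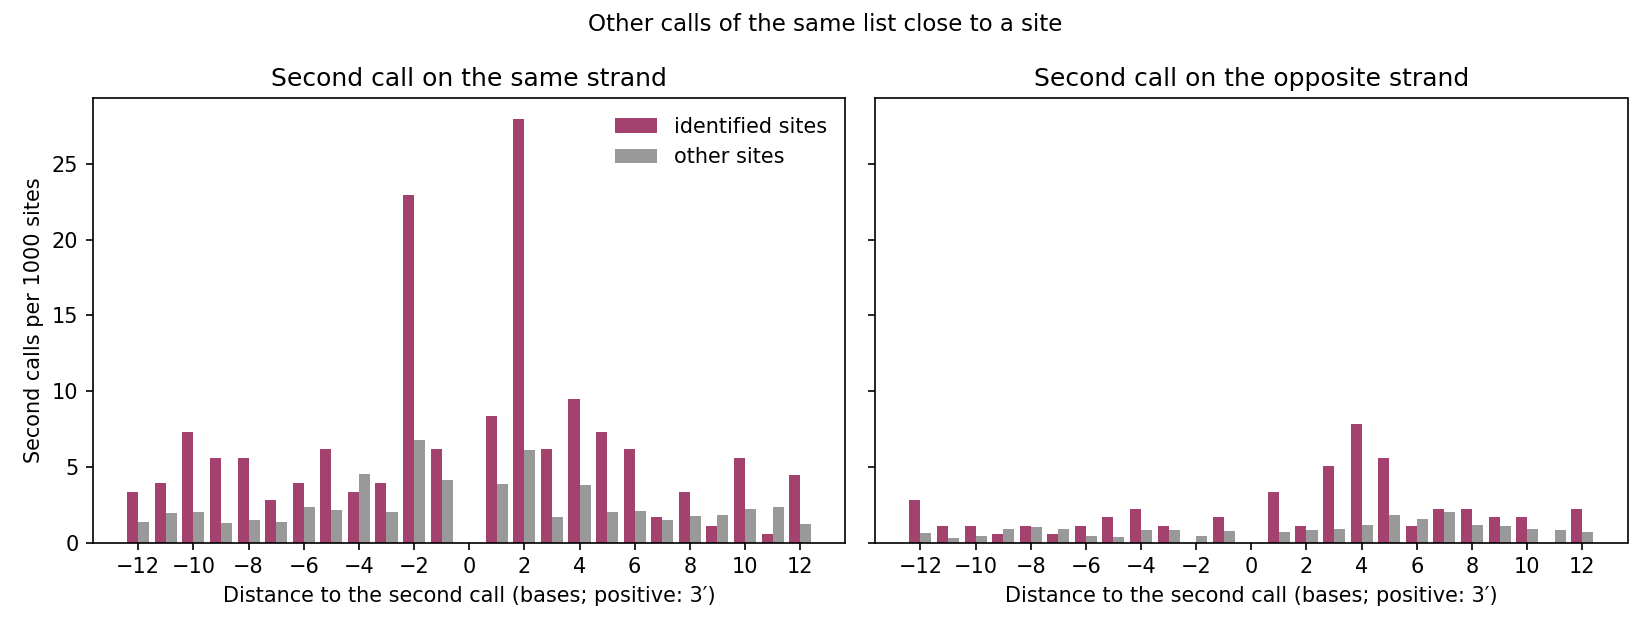
Second calls of the same list per 1000 sites (vertical axis) by distance from the site (bases, horizontal axis, positive is 3′), on the same strand (left) and the opposite strand (right), for identified and other sites. The highest bars are 2 bases away on the same strand, at 28 and 22.9 for identified sites and 6.13 and 6.77 for other sites.

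Joined at gaps under 100 bases within a list, the identified sites formed 1678 groups, of which 1602 were single sites, 60 were pairs and 16 held 3 or more. The 5 with most sites lay at a single place on chromosome 9, with 7 sites from KO S, 7 for WT S, 6 for KO L and 5 for WT L, and on the contig GL456392, with 5 for WT S. The place on chromosome 9 is within Gm33838, a long non-coding RNA gene at 35285514 to 35307723. All of its sites fell in 288 bases of the gene, and their coverage ran from 131 to 3175. Its contexts shared 10 to 30 words of 12 bases with those of the 4 areas left out, so the place resembles the sequence of those areas although it lies outside them. How reads with several matches were placed is not given in the sources used here.

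The same place held most of the bases called in more than 1 list. Of 15 such bases, 13 were identified in at least 1 list, and these comprised 8 in Gm33838, 3 on GL456392, 1 in Chl1 and 1 on chromosome 15. Of the 13, 12 shared 3 or more words with the 4 areas, the exception being the base on chromosome 15 with 1 word. All other identified calls were made in a single list, 1752 of 1788. Calls in a second list covered 2.01% of identified and 0.0499% of other sites. The bases called in all 4 lists, and identified in all 4, are printed next, since each can be followed through all 4 lists. The line for chromosome 15 is added because that base shared the fewest words with the areas, and it was chosen after its values were seen.
Base 1, chr9:35305272-35305312, plus strand: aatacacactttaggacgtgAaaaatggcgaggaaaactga
Base 2, chr9:35305274-35305314, plus strand: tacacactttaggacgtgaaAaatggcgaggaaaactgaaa
Base 3, chr9:35305220-35305260, minus strand: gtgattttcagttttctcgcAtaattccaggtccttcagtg
Base 4, chr9:35305216-35305256, plus strand: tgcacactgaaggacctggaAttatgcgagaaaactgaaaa
Base 7, chr6:103649274-103649314, plus strand: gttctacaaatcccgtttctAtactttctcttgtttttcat
Base 12, chr15:75085618-75085658, plus strand: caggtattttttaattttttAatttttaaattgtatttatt

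Base 1 had the highest identification score of each list, at 190 for WT L, 206 for KO L, 327 for WT S and 361 for KO S, with coverages of 425, 550, 1509 and 986. Its IPD ratio was 2.31, 2.29, 2.32 and 2.47 and its modified fraction 63.6%, 61.4%, 64.1% and 66.3% in the same order. KO S stood highest in both, while the IPD ratios of WT L, KO L and WT S lay between 2.29 and 2.32. The difference has no replicate check. Base 2 stands 2 bases 3′ of base 1 and had IPD ratios of 1.44, 1.36, 1.63 and 1.61 and fractions of 21.4%, 17.3%, 28.5% and 28.1%. The 2 S lists were above the 2 L lists there.

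Bases 3 and 4 lie on opposite strands 4 bases apart. The IPD ratio of base 3 was 2.02 for WT L, 1.92 for KO L, 2.61 for WT S and 2.67 for KO S, and that of base 4 was 2.22, 2.07, 2.52 and 2.68. Both were higher in S than in L. Their fractions were 47.4%, 40%, 67.3% and 68.7% for base 3 and 45.8%, 39.8%, 53.3% and 59.3% for base 4. Coverage at these bases was 140 to 166 in the L lists and 308 to 517 in the S lists, so library type and coverage cannot be told apart.

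Base 7 lies in Chl1, which encodes a neural cell adhesion molecule of the L1 family. Its identification score was 74 for WT L, 63 for KO L, 118 for WT S and 76 for KO S, at coverages of 114, 115, 237 and 84. The IPD ratio was 2.39, 2.43, 2.39 and 2.75 and the fraction 47.7%, 45.7%, 44.8% and 63.4%. KO S stood above the other 3 lists in both, at the lowest coverage of the 4, and the difference has no replicate check. Base 12 was called in the 2 L lists alone, with identification scores of 21 in WT and 42 in KO, IPD ratios of 2.65 and 3.19 and fractions of 53.7% and 47.4%. The bases of the other recurring calls had IPD ratios from 1.23 to 3.42. At 10 of the 13 bases every list that called the base also identified it.

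**Figure D5:**
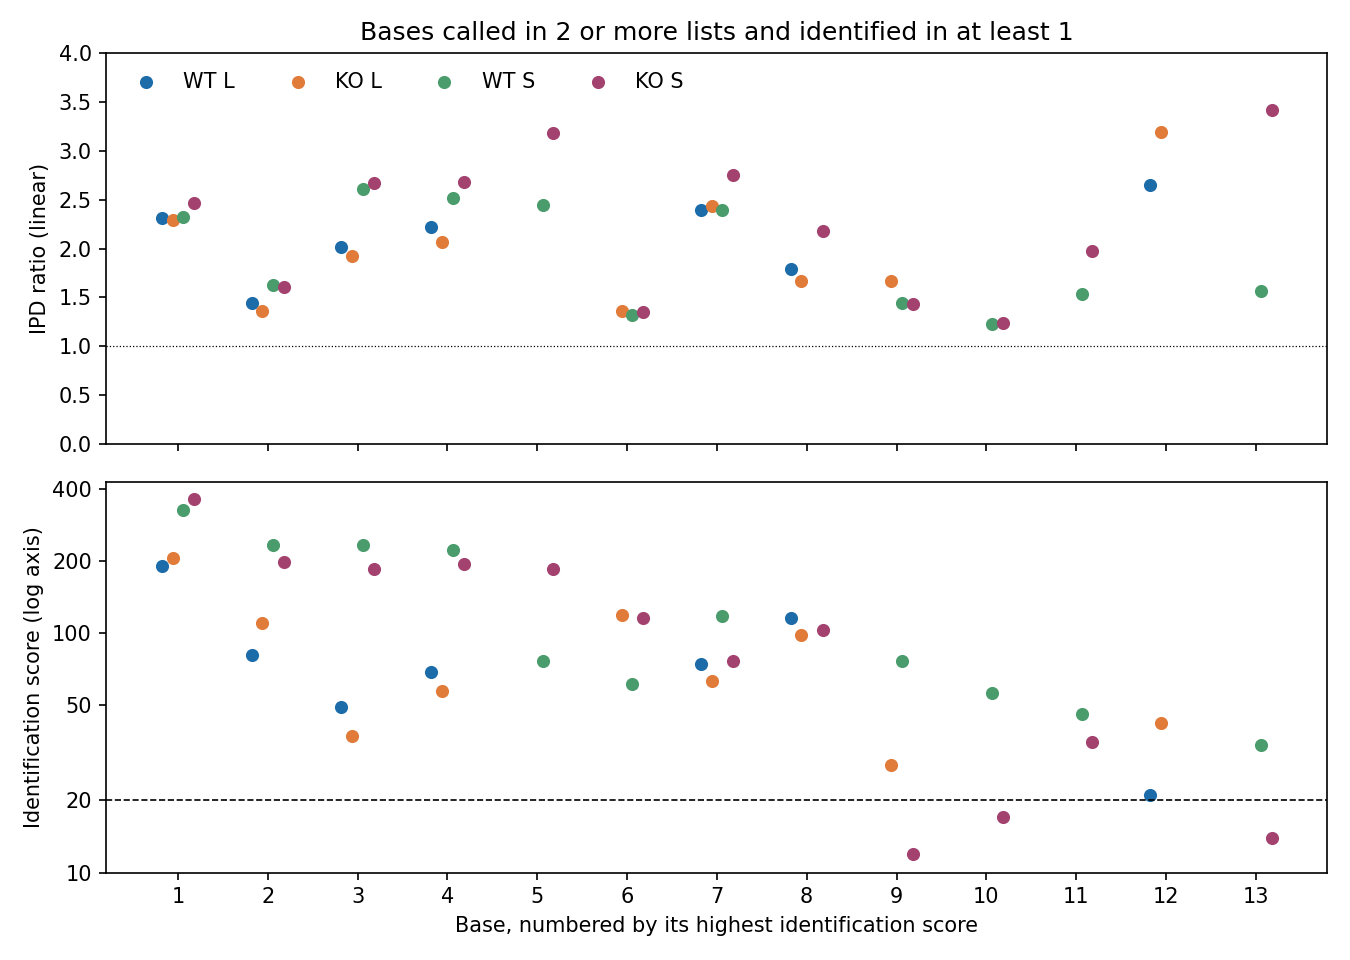
IPD ratio (linear, upper panel; the dotted line marks 1) and identification score (log axis, lower panel; the dashed line marks the threshold of 20) at the 13 bases called in 2 or more lists and identified in at least 1, a point per list. At base 1 the 4 lists have IPD ratios from 2.29 to 2.47 and identification scores from 190 to 361.

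Gm33838 included, 860 genes held an identified site, most of them a single one (767), while 77 held 2 and 16 held 3 or more of 49943 genes in the RefSeq table. Gm33838 had 26, on 9 distinct bases. Of the next in order, Smtnl1, which encodes a smoothelin-like muscle protein, had 4 in WT S spanning 11 bases of an adenine run, with IPD ratios of 1.92 to 3.1 at coverage 26 to 33. Brat1, which encodes a binding partner of BRCA1 and ATM, had 3 in WT L spanning 6 bases of such a run, Mtcl1, a microtubule crosslinking factor, had 3 in KO L spanning 6 bases of another, and 9330159F19Rik had 3 in KO S spanning 11 bases, all in AAA. Rasgef1b, which encodes a Ras guanine nucleotide exchange factor, had 4 in KO S spanning 91 bases of GC-rich sequence, with IPD ratios of 1.69 to 2.23. Chl1 had 4, the same base in the 4 lists. Camta1, a calmodulin-binding transcription activator gene, had 4 scattered over 554982 bases in KO L, WT S and KO S. Gm39250 had 3 in WT S within 83 bases, and Ndst3, a heparan sulfate N-deacetylase and N-sulfotransferase gene, had 3 over 23107 bases in the KO lists. One context from each kind of close group is printed, with the called adenine in capitals, to show how an adenine run and the GC-rich group differ.
Smtnl1, WT S, chr2:84826663-84826703, minus strand: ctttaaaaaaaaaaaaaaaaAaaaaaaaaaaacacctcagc
Brat1, WT L, chr5:140709835-140709875, minus strand: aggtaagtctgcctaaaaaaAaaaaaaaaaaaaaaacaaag
Mtcl1, KO L, chr17:66349665-66349705, plus strand: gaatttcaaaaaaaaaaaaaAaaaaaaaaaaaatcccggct
Rasgef1b, KO S, chr5:99252761-99252801, plus strand: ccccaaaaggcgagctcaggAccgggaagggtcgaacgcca

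Identified sites lay in gene bodies in 52.6% of cases against 51.6% of other sites, a difference of 0.97 points (-1.49 to 3.43). The difference was 8.04 points (1.86 to 14.2) at coverage 25 or more, 4.81 points (0.80 to 8.83) at a modification score of 30 or more, and -0.09 points (-4.44 to 4.26) at an identification score of 30 or more. Identified sites lay in protein genes in 43.6% against 43.2%. Windows from 250 bases before to 50 after a RefSeq gene start held 4 identified sites (0.224%), in Gm52237, Gm39732, Zzz3 and Grb2, and 53 other sites (0.378%). Of 26 pluripotency genes with 5 kb on each side, Klf5, which encodes a transcription factor of the ES cell state, held 1 identified site, in KO S, and the list held 4 other sites. Of 23 genes for DNA and adenine methylation enzymes, Fto, an RNA demethylase gene, had 1 in WT L and Tet1, a 5-methylcytosine oxidase gene, had 1 in WT S, with 10 other sites. Of 19 DNA damage response genes, the kinase gene Atm had 1 in WT S, Mre11a, which encodes a nuclease of the MRN complex, 1 in KO L, and Rad50, of the same complex, 2 neighbouring bases in WT S, with 11 other sites. Coverage was 9 at the Klf5 site, 8 at Fto, 6 at Tet1 and 7 at Mre11a, against 31 at Atm and 24 to 25 at Rad50. In the order of the gene lists, 20%, 16.7% and 26.7% of calls were identified, against 11.3% of all calls outside the areas. The counts of these sites are too few to compare genotypes or gene lists. The depth at uncalled bases is unknown, so a gene without a call says nothing.

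By chromosome, the identified share of calls ran from 6.52% on chromosome 19 (21 of 322) to 14.1% on chromosome X (58 of 410). Chromosome X held 3.24% of identified and 2.51% of other sites, a difference of 0.76 points (-0.10 to 1.62), and with coverage held equal it was 0.92 points (0.03 to 1.80). With intervals set for 21 chromosomes, 1 difference excluded 0, that of chromosome 19, which held 1.17% of identified and 2.14% of other sites. Chromosome 9 stood at 14%, and at 11% without the sites that shared 3 or more words with the areas. Both strands held identified sites, 163 on the plus and 148 on the minus strand for WT L, 129 and 105 for KO L, 426 and 464 for WT S and 161 and 192 for KO S. A CpG stood in the context of 32.7% of identified and 28.6% of other sites, a difference of 4.03 points (1.72 to 6.33), and with coverage held equal it was 1.77 points (-0.56 to 4.10). Short tandem repeats were found in 6.71% against 6.02% of contexts.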

How the data were processed

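Each of the 4 deposited lists holds called adenines of the 8 samples' native H2A.X precipitates, with both replicates of a group in 1 list. The authors aligned to mm10, per the submitters' processing notes. The source column reads kinModCall, with the caller's version, the aligner, the filters and the joining of replicates not given in the sources used here. The deposited score (lowest 20) and the deposited identification score are the caller's own values on a scale that no source states. The deposited IPD ratio is linear, of observed to predicted inter-pulse duration. The coverage is a raw signal as deposited, not normalized. The deposited modified fraction is given at coverage 11 or more and was converted to percent. The depth at uncalled bases is unknown.

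The sites, gene lists and measures were chosen with earlier results of these data known. Shares have exact Clopper-Pearson intervals at 95%, differences within a list Newcombe intervals, differences over the lists Mantel-Haenszel intervals, and medians order-statistic intervals. Intervals over 16 contexts in 4 lists (64 comparisons) were set at 99.922%. Those over 80 pairs of a base and a position were set for 80 comparisons at once. Coverage was held equal in 9 ranges (up to 8, 10, 12, 15, 20, 25, 40 and 80, and above). No p-value was computed, as each group is 1 list. Genes came from a RefSeq table of assembly GRCm38.p6, from start to end without exons. Words of 12 bases were compared between contexts outside and inside the 4 areas, 3 or more marking likeness.

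Named were AG, AGG and contexts that differed in 2 or more lists, the 3 highest sites per list, the 5 largest groups, up to 10 genes with 3 or more sites (a gene sharing sites with a higher one left out), up to 10 recurring bases, and list genes within 5 kb. The remaining names were chosen after their values were seen. The alternatives were an identification score of 30, coverage of 25, modification score of 30, strata of coverage, the areas kept in, and 1 site per run of calls under 1 kb apart. The last was not run for calls within 10 bases. The results for cytosine before, CAG and CpG, the KO minus WT difference in the identified share, the counts of contexts under each alternative, and the removal of sites like the areas were added after seeing the data. Python 3.11.15, numpy 2.4.6, scipy 1.17.1, pandas 2.3.3 and matplotlib 3.10.9 were used, and the interval functions were tested on simulated data.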

Additional observations from a re-analysis of the deposited data

How the results depend on the processing

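No paired analysis was possible because both replicates of a group are in 1 list, and for the same reason no replicate could be left out. Taken over the 4 lists together, the differences in CAG and in calls within 10 bases kept their direction and excluded 0 under every alternative run. They went from 4.75 to 9.93 points and from 3.92 to 15.2 points. For calls within 10 bases, the alternative of 1 site per 1 kb run was not run. In what follows differences are identified minus other sites in points, and the cause of each change was not tested.

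At coverage 25 or more, the AG difference of 4.83, that of cytosine before at 3.87 and that of guanine before at -5.13 no longer excluded 0, while gene bodies stood at 8.04 and excluded it. In single lists there, AG turned to -8.09 for WT L and -1.52 for KO L, and cytosine before to -2.81 for KO L and -4.40 for KO S. AG for KO S, at 3.67, and cytosine before for WT L, at 3.26, included 0. CAG stood there at 5.74 for WT L, 7.40 for KO L and 0.65 for KO S, each including 0, against 6.4 for WT S. The number of the 16 contexts that differed was 0 for WT L, 0 for KO L, 1 for WT S and 0 for KO S. The median coverage differed by 0.5, 3.5, 2 and 2 in that order of lists, and the median fraction by 0.6 in KO L and 16.3 in KO S.

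At an identification score of 30 or more, guanine before was -3.08 and included 0, and gene bodies turned to -0.088. AG for WT L, at 7.0, and for KO L, at 8.30, and cytosine before for KO L, at 10.9, included 0. The contexts that differed were 1 for WT L, 1 for KO L and 1 for WT S, the median coverage differed by 6, 8, 9 and 8, and the median fraction by 4.55 for KO L and 14.7 for WT S. At a modification score of 30 or more, gene bodies stood at 4.81 and chromosome X at 1.58, both excluding 0, and CpG at 2.24, including it. CAG for KO S, at 4.37, and AG for KO L, at 9.06, included 0. Cytosine before was 4.49 over the lists, and 4.93 for WT L, 1.75 for KO L and 3.40 for KO S, each including 0. The contexts that differed were 0, 0, 1 and 0, and the median fraction differed by 3.8 for WT L, 2.65 for WT S and -1.1 for KO S.

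With the 4 areas kept in, gene bodies turned to -11.2, chromosome X to -0.045 and cytosine before in KO L to -0.32. Cytosine before was 2.88 over the lists, while 3.53 for WT L and 2.63 for KO S included 0. The contexts that differed were 0 for WT L, 1 for KO L and 2 for KO S, the median coverage differed by 7, 12, 8 and 8.5, and the median fraction by -11, -15.95, 0.4 and -9.65. With strata of coverage, chromosome X was 0.92 and excluded 0, and CpG was 1.77 and included it. In WT L, 1 context differed with 1 site per 1 kb run, and 1 without sites like the areas.

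The KO minus WT difference in AG among identified sites of S included 0 at 5.93 (identification score 30), 5.67 (coverage 25), 5.49 (strata of coverage), 3.98 (areas kept in) and 4.93 (modification score 30). The KO minus WT difference in the identified share in S, -1.80, included 0 at -0.72 (identification score 30) and -3.21 (modification score 30), and turned to 0.27 (strata of coverage) and 3.14 (coverage 25). In L it was -0.19 and turned to 3.84 (coverage 25) and 1.35 (areas kept in). Of 239 values under alternatives, 156 kept their direction and side of 0 or, for medians and counts, their size. Depth limits the precision, since 446 identified sites have no fraction and 59 calls outside the areas have coverage of 80 or more.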
